A study of Mus musculus with 6 samples.

Results

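Adrenomedullin and the calcitonin gene-related peptide (CGRP) receptor axis was examined in tumor-associated macrophages (TAMs) through 5 genes: Adm, which encodes the peptide hormone adrenomedullin, Calcrl, which encodes the calcitonin receptor-like receptor, and Ramp1, Ramp2 and Ramp3, which encode the receptor activity modifying proteins (RAMPs). The genes were found by their Ensembl mouse gene IDs, 1 ID for each symbol, among 56980 genes in the deposited table. TPM, a transcript abundance corrected for length and scaled to the same total in each library, had to reach 1 in 3 or more libraries for a gene to be tested. All 5 passed this filter, as did 14776 genes in all. The axis was chosen by its values in these libraries, that is, with the TPM difference between WT and C5aR-/- TAMs known, so this difference is given as a description, without a test.

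ID8 cells, a mouse ovarian cancer line, were injected into the peritoneal cavity of female WT mice on a C57BL/6 background or of C5aR knockout (C5aR-/-) mice on the same background, all 6 to 8 weeks old when used in the study. After 2 months, TAMs were sorted from the abdominal tumors as live CD45+CD11b+Ly6G-F4/80+ cells, and 3 libraries were sequenced from each group. The knockout mice lack the receptor in the whole animal and not in macrophages alone. C5ar1, which encodes C5aR, had a TPM from 16.2 to 86.5 in the WT and from 0.05 to 0.38 in the C5aR-/- libraries (p = 0.1 in a two-sided exact permutation test, which cannot go lower with 3 libraries against 3). Depth is unknown, because TPM keeps no record of it, and from 14393 to 15015 genes reached a TPM of 1 in a library. The 8 macrophage markers were present in all 6 libraries, but their summed TPM ran from 1974 to 7550 in the WT and from 1850 to 6935 in the C5aR-/- libraries. Transcripts of other cells were also abundant, and the 6 epithelial markers (keratins, Epcam and Cdh1) summed to between 1669 and 2211 TPM.

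The calcitonin receptor-like receptor is a class B G protein-coupled receptor that reaches the cell surface together with a RAMP, and the partner sets what it binds. With RAMP1 it forms the receptor for CGRP, a neuropeptide released by sensory nerves, and with RAMP2 or RAMP3 it forms the adrenomedullin receptors. These receptors couple mainly to Gs and raise cyclic AMP. Adrenomedullin is known to be induced by hypoxia and to act on blood and lymphatic vessels, and CGRP is known to dampen cytokine production by macrophages and dendritic cells.

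In GRCm38, which is the build mm10 named in the submitters' processing notes, Adm lies on the plus strand at chr7:110627661-110629820, Calcrl on the minus strand at chr2:84330626-84425411, Ramp1 on the plus strand at chr1:91179822-91225196, Ramp2 on the plus strand at chr11:101246028-101259546 and Ramp3 on the plus strand at chr11:6658521-6677475. Promoter sequences were found in RefSeq (GRCm38.p6) for 4 of the 5 genes, all but Ramp2. The bases before the start of Adm and of Calcrl are shown because these are the 2 genes whose libraries did not overlap between the groups. They cover chr7:110627407-110627656 for Adm and, on the minus strand, chr2:84425412-84425516 for Calcrl, and they end before the earlier of the RefSeq and GENCODE starts. Capitals mark CCGCCC, the GC box core GGGCGG read on the other strand, and TTATAA, which holds the TATA box core TATAA on both strands.
Adm: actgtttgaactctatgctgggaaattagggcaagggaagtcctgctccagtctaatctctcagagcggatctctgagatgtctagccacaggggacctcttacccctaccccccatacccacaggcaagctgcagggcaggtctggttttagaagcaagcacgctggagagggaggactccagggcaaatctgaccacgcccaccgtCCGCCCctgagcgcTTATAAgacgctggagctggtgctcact
Calcrl: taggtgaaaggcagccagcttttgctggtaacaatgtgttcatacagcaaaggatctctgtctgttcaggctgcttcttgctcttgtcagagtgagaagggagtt

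In the 250 bases before the RefSeq start, Adm held TATAA at 27 bases before the start on its own strand and at 28 bases on the other, and GGGCGG at 42 bases on the other strand, each counted to the base of the match farthest from the start. Calcrl held GGGCGG at 83 bases before its RefSeq start, outside the stretch printed here, Ramp3 held it at 3 places and Ramp1 held neither. Among 32851 promoters of the same length, TATAA was in 22.8% and GGGCGG in 32.7% on either strand. Both motifs were chosen after the sequences were seen. ACGTG, the only form of the HIF core that was searched, was found in 16.6% of all promoters. The core TGACG of the cyclic AMP response element was in 17.8% and its full form TGACGTCA, which contains TGACG, in 1.55%. All 3 had 0 matches in the 4 promoters searched, which says only that these letters are not in these windows. Whether other forms of the HIF core are there was not tested.

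Adm, the ligand, was low in TAMs of both groups and higher in each C5aR-/- library than in each WT library. Its TPM was 1.83, 1.25 and 1.24 in WT TAMs 1, 2 and 3 and 3.01, 5.5 and 2.98 in C5aR-/- TAMs 1, 2 and 3. C5aR-/- TAM 2 stood above the other libraries, while C5aR-/- TAMs 1 and 3 were nearly equal. The mean was 1.44 ± 0.338 (SD, n = 3) for WT TAMs against 3.83 ± 1.45 (SD, n = 3) for C5aR-/- TAMs, 2.66-fold higher. The difference in log2(TPM + 1), C5aR-/- minus WT, was 0.95 with a standard error of 0.28; this scale shrinks differences of low genes. In the WT mean 6.72% of the tested genes were below Adm, against 20.8% in the C5aR-/- mean. An antisense gene that overlaps Adm, Gm28863, was listed at 0 in all 6 libraries.

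Calcrl, the receptor, was lower in each C5aR-/- library than in each WT library. WT TAMs had 6.75, 10.3 and 6.54 TPM and C5aR-/- TAMs had 1.66, 2.65 and 3.65 TPM. WT TAM 2 was the highest, C5aR-/- TAM 1 the lowest, and the gap between the groups lay between 3.65 and 6.54. The mean was 7.87 ± 2.12 (SD, n = 3) for WT TAMs against 2.65 ± 0.995 (SD, n = 3) for C5aR-/- TAMs, so WT TAMs had 2.97-fold more. The log2 difference was -1.29 (standard error 0.29), and with each library left out in turn it was from -1.48 to -1.08. Adm and Calcrl were thus 2 of 5 axis genes whose groups did not overlap, against 21.3% of all genes tested (12.5% lower and 8.84% higher in C5aR-/- TAMs), and nothing is read from this count since the axis was picked on it. Over all 14776 genes, limma called 0 (0%) by the stricter of the cutoffs in the study's methods, a 2-fold change with a Benjamini-Hochberg adjusted p below 0.05. By the looser cutoff, a 2-fold change with the p left unadjusted, it called 733 (4.96%), and 2133 genes had such a p whatever their fold change. In this fit both cutoffs took the fold change in TPM + 1, which for low genes is smaller than the fold change in TPM. Across the alternatives run the stricter cutoff gave from 0 to 349 genes, the most without C5aR-/- TAM 1.

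The ratio of the ligand transcript to the receptor transcript did not overlap between the groups. This follows from Adm being higher and Calcrl lower in every C5aR-/- library, so it is no further result. Adm per Calcrl was 0.271, 0.121 and 0.19 in WT TAMs, where the receptor transcript outnumbered the ligand transcript in every library. In C5aR-/- TAMs it was 1.81, 2.08 and 0.816, so that Adm was the more abundant of the pair in C5aR-/- TAMs 1 and 2 but not in C5aR-/- TAM 3.

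**Figure D1:**
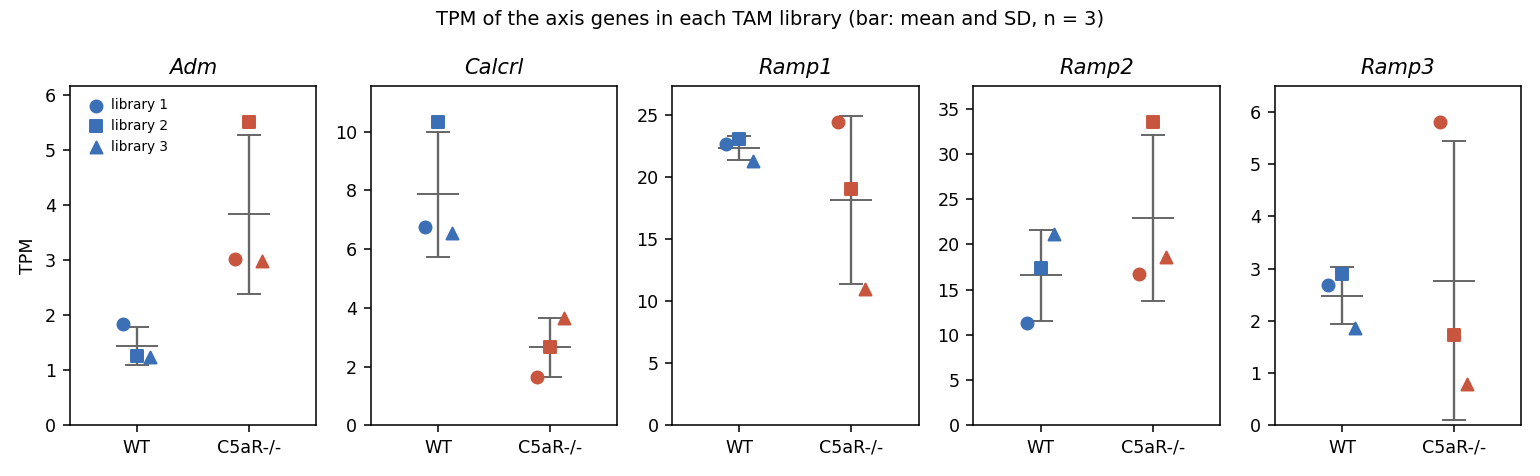
TPM of each axis gene (y axis, linear, from 0) in WT and C5aR-/- TAMs. Symbols are libraries 1, 2 and 3 of a group, and bars are the mean and SD. Adm and Calcrl do not overlap between the groups (WT at most 1.83 against at least 2.98 for Adm, WT at least 6.54 against at most 3.65 for Calcrl), and the 3 RAMP genes overlap.

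The RAMP genes overlapped between the groups, and their C5aR-/- libraries were far apart. Ramp1, the CGRP receptor partner, was even in WT TAMs at 22.6, 23.1 and 21.3 TPM. In C5aR-/- TAMs it was 24.4, 19.0 and 11 TPM, with C5aR-/- TAM 1 above and C5aR-/- TAM 3 well below every WT library. The log2 difference of Ramp1 was -0.35 (standard error 0.28), with -0.59 when C5aR-/- TAM 1 was left out and -0.05 when C5aR-/- TAM 3 was left out.

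Ramp2, the partner in the main adrenomedullin receptor of vessels, was 11.3, 17.4 and 21.2 TPM in WT and 16.8, 33.5 and 18.6 TPM in C5aR-/- TAMs. As for Adm, C5aR-/- TAM 2 was the highest library, and the other 5 overlapped. The log2 difference was 0.42 (standard error 0.33) and 0.13 without C5aR-/- TAM 2. In GENCODE, 1 of the 8 Ramp2 transcripts reaches into Vps25, a neighboring gene on the same strand. Vps25 was more abundant, with 91.0 to 141 TPM, so the assignment of reads between the pair is uncertain.

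Ramp3, the partner in the other adrenomedullin receptor, was the lowest of the RAMPs. It was 2.68, 2.9 and 1.87 TPM in WT TAMs, and in C5aR-/- TAMs it spread from 5.8 in library 1 over 1.72 in library 2 to 0.79 in library 3. The highest and the lowest of the 6 values were thus both in C5aR-/- TAMs. The log2 difference was -0.11 (standard error 0.49), and its sign depended on single libraries, since it was -0.65 without C5aR-/- TAM 1, 0.01 without C5aR-/- TAM 2 and 0.32 without C5aR-/- TAM 3. An overlapping pseudogene on the other strand, Gm11978, was listed at 0 throughout.

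The make-up of the RAMP transcripts was compared within each library, since a share there does not depend on how the library was scaled. In WT TAMs the TPM of Ramp1, Ramp2 and Ramp3 summed to 41.4 ± 4.22 (SD, n = 3), and in C5aR-/- TAMs to 43.9 ± 12.2 (SD, n = 3), so the sums differed by less than the libraries of a group did. Ramp1 held 61.9%, 53.2% and 47.9% of this sum in WT TAMs and was the most abundant RAMP in all 3. It held 52.0% in C5aR-/- TAM 1 but 35.0% and 36.1% in C5aR-/- TAMs 2 and 3. Ramp2 held 30.8%, 40.1% and 47.8% in WT TAMs, and 35.7%, 61.8% and 61.3% in C5aR-/- TAMs, so it led the RAMPs in C5aR-/- TAMs 2 and 3 only. The mean share of Ramp2 was 39.6% ± 8.53 (SD, n = 3) for WT TAMs against 52.9% ± 14.9 (SD, n = 3) for C5aR-/- TAMs, and the groups overlapped through C5aR-/- TAM 1, whose Ramp1 and Ramp2 shares lay inside the WT range. Ramp3 held 12.4% in C5aR-/- TAM 1, above the 4.22% to 7.33% of WT TAMs, and 3.17% and 2.60% in the other C5aR-/- libraries.

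Set against its partners, Calcrl was lower in all C5aR-/- libraries. Per 100 TPM of RAMP there were 18.5, 23.8 and 14.7 TPM of Calcrl in WT and 3.54, 4.88 and 12 in C5aR-/- TAMs. C5aR-/- TAM 3, with the lowest RAMP sum (30.4 TPM) and the highest Calcrl of its group, came closest to WT TAMs. Summed RAMP transcripts exceeded the receptor transcript in each library.

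**Figure D2:**
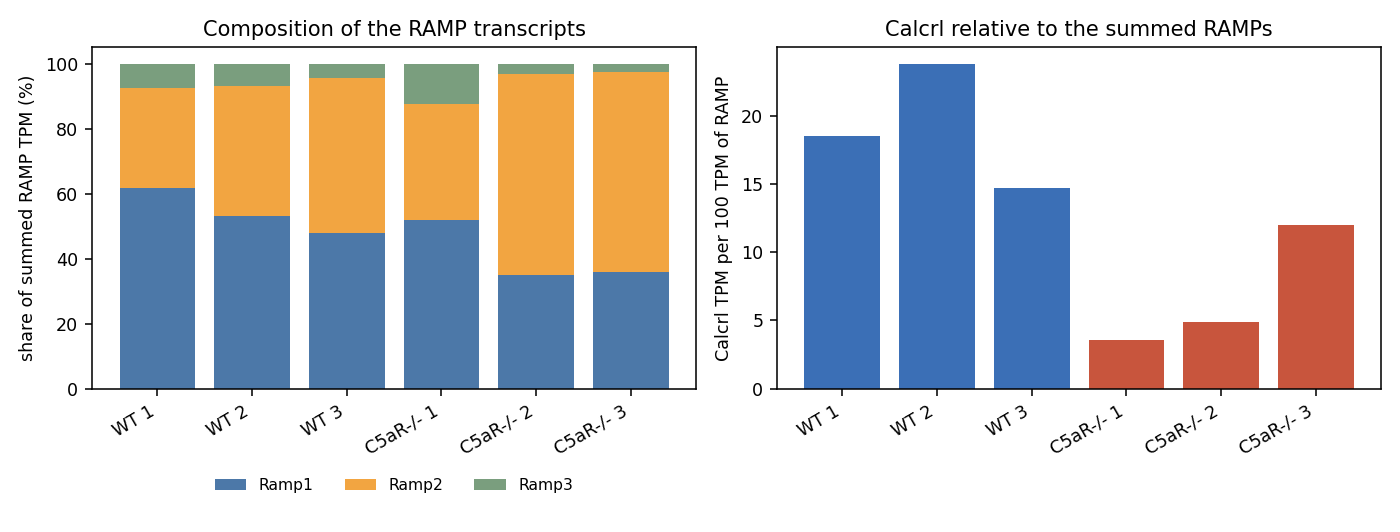
Left, share of Ramp1, Ramp2 and Ramp3 in their summed TPM (y axis, percent) for each of the 6 libraries. Right, Calcrl TPM per 100 TPM of summed RAMP in the same libraries, with WT in blue and C5aR-/- in red. Ramp2 is the largest share in C5aR-/- TAMs 2 and 3 (61.8% and 61.3%), and Calcrl is between 3.54 and 12 in C5aR-/- against 14.7 to 23.8 in WT TAMs.

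TPM is corrected for transcript length, so the levels of the 5 genes can be ordered. In WT TAMs the order of mean TPM was Ramp1 (22.3), Ramp2 (16.6), Calcrl (7.87), Ramp3 (2.48) and Adm (1.44), and no neighbors overlapped in their range over the libraries, though the gaps from Ramp1 to Ramp2 (21.26 against 21.21) and from Ramp3 to Adm (1.87 against 1.83) were small. In C5aR-/- TAMs it was Ramp2 (23.0), Ramp1 (18.1), Adm (3.83), Ramp3 (2.77) and Calcrl (2.65). There Ramp2 and Ramp1 overlapped, as did Adm, Ramp3 and Calcrl with their neighbors, whereas Ramp1 and Adm did not. Calcrl, in the middle of the WT order, was last here by its mean, but the last 3 genes could not be told apart by their ranges. The order rested on single libraries: 3 of the 5 genes kept their place without C5aR-/- TAM 1, where Ramp3 and not Calcrl was last, and 1, Calcrl, kept its place without C5aR-/- TAM 2.

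Other ligands and receptors of the family were sparse. Calcr and Iapp, the calcitonin receptor and amylin, were listed at 0 in all 6 libraries, and Adm2, which encodes intermedin, was at 0 in 5 of them and at 0.06 TPM in C5aR-/- TAM 3. Of the CGRP genes, Calca was uneven (0.24, 0.43 and 2.85 TPM in WT, 0.35, 3.09 and 1.26 TPM in C5aR-/- TAMs). Calcb was named after its values were seen. It had 1.92, 1.17 and 1.49 TPM in WT and 0, 0.81 and 0.26 TPM in C5aR-/- TAMs, with no overlap. Of all genes tested, 12.5% were lower in C5aR-/- TAMs without overlap. Calcb reached 1 TPM in WT libraries alone, so it passed the filter only through the group where it was higher. Its log2 difference, -0.93 with a standard error of 0.30, is therefore given as a description. In mean TPM it was 4.28-fold lower in C5aR-/- TAMs, but in TPM + 1 it fell short of the 2-fold change of the looser cutoff.

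Crcp, whose product couples the CGRP receptor to signaling, was steady at 27.8 ± 2.09 TPM (SD, n = 3) for WT TAMs against 30.7 ± 6.81 TPM (SD, n = 3) for C5aR-/- TAMs. Ackr3, a scavenger receptor that takes up adrenomedullin, was 10.4 ± 4.81 and 12.8 ± 4.28 TPM. Gpr182, a receptor once assigned to adrenomedullin, split the C5aR-/- libraries. It had 11.4, 15.13 and 14.97 TPM in WT TAMs and 19.0, 1.81 and 0.37 TPM in C5aR-/- TAMs, where Ramp3 had the same order of libraries. Of the 8 genes of this list 5 were tested, with a median log2 difference of 0.12 against -0.05 over all genes tested, and 0 passed the looser cutoff. The median was -0.55 without C5aR-/- TAM 2 and -0.45 without C5aR-/- TAM 3.

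The RAMPs also associate with other receptors, of which few were seen. Of 13 such genes and class B receptors, 4 were listed at 0 in all libraries, 12 stayed under 1 TPM in each library and 0 passed the filter. The highest value was 1.02 TPM, for Vipr1 (a receptor of vasoactive intestinal peptide) in C5aR-/- TAM 1. In these libraries Calcrl was therefore more abundant than any of these 13 genes.

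Genes that process, bind or degrade the peptides tended lower in C5aR-/- TAMs. Of the 10 tested, 9 had a negative log2 difference, against 55.5% of all genes tested, the median was -0.39 and 2 passed the looser cutoff as lower (20.0%, against 2.84% of all genes). Ece1, an endothelin-converting enzyme that also cleaves CGRP inside cells, had 342, 326 and 320 TPM in WT and 128, 172 and 96.3 TPM in C5aR-/- TAMs. The difference on the log2 scale was -1.35 ± 0.21 (standard error), with an adjusted p of 0.0875 from limma. Pcsk5, a proprotein convertase, was 7.22 ± 0.963 TPM (SD, n = 3) in WT TAMs, with 5.34, 0.81 and 0.58 TPM in C5aR-/- TAMs. On the log2 scale it differed by -1.64 ± 0.53 (standard error), with an adjusted p of 0.255 from limma.

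Pam, the enzyme that amidates both peptides at their C terminus, was 169 ± 17.7 TPM in WT and 115 ± 21.8 TPM in C5aR-/- TAMs (log2 difference -0.56, standard error 0.17). Cpe, a carboxypeptidase of peptide precursors, was the most abundant gene of this list, with 884 ± 5.09 and 663 ± 232 TPM. Pam, Pcsk5 and Ece1 did not overlap between the groups and were lower in C5aR-/- TAMs, as was Ide, the insulin-degrading enzyme, which was named after its values were seen (76.0 ± 7.12 TPM in WT and 61.1 ± 7.16 TPM in C5aR-/- TAMs). Of all genes tested, 12.5% were lower in C5aR-/- TAMs without overlap.

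**Figure D3:**
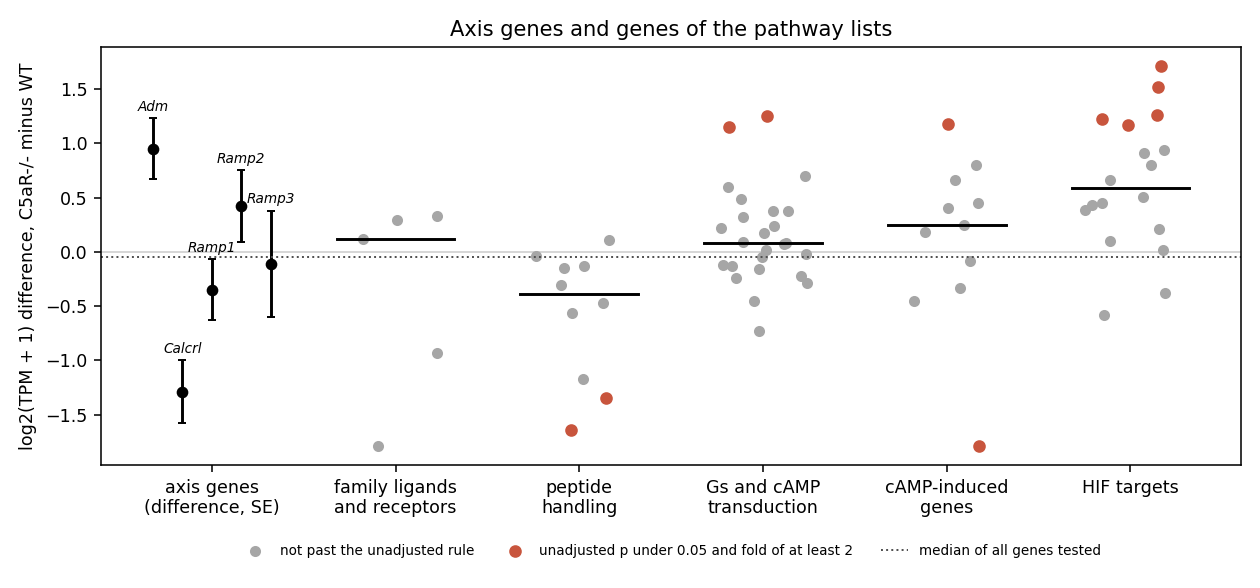
Difference in log2(TPM + 1), C5aR-/- minus WT (y axis), for the 5 axis genes (black, with standard error) and for the tested genes of 5 pathway lists. Red points passed the looser cutoff (a 2-fold change in TPM + 1, p below 0.05 unadjusted). Short black lines are list medians, and the dotted line is the median of all genes tested (-0.05). HIF targets have a median of 0.59 and peptide handling genes of -0.39.

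Downstream of the receptors, the Gs and cyclic AMP genes did not share a direction. All 25 were tested, 15 had a positive and 10 a negative difference, the median was 0.08, and 2 passed the looser cutoff as higher (8%, against 2.13% of all genes) and 0 as lower. Rapgef3, the cyclic AMP sensor EPAC1, had 9.65, 15.04 and 13.71 TPM in WT and 26.27, 30.55 and 38.51 TPM in C5aR-/- TAMs. The difference on the log2 scale was 1.25 ± 0.22 (standard error), with an adjusted p of 0.0965 from limma. Adcy3, an adenylyl cyclase, had 1.69, 1.66 and 1.78 TPM in WT and 3.95, 4.43 and 7.1 TPM in C5aR-/- TAMs (1.15 ± 0.25 on the log2 scale, standard error, adjusted p = 0.14 from limma).

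Gnas, which encodes the Gs alpha subunit, was abundant and close in the groups at 661 ± 82.2 TPM (SD, n = 3) for WT TAMs against 593 ± 76.3 TPM (SD, n = 3) for C5aR-/- TAMs. Prkar1a, a regulatory subunit of protein kinase A, was 211 ± 17.1 and 172 ± 21.1 TPM. Without C5aR-/- TAM 1 the median of the list was -0.07.

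Genes known to be induced through cyclic AMP differed in both directions. Of 11 tested, 7 had a positive difference (63.6%, against 44.5% of all genes), the median was 0.25, and 1 passed the looser cutoff in each direction (9.09%, against 2.13% of all genes as higher and 2.84% as lower). Nr4a1, a nuclear receptor, had 349, 274 and 227 TPM in WT and 89.26, 164 and 34.45 TPM in C5aR-/- TAMs (-1.79 ± 0.53 on the log2 scale, standard error, adjusted p = 0.224 from limma). Areg, an EGF receptor ligand, had 2.76, 1.91 and 0.21 TPM in WT and 3.22, 4.16 and 6.11 TPM in C5aR-/- TAMs (1.18 ± 0.46 on the log2 scale, standard error, adjusted p = 0.319 from limma). Fos and Dusp1, early response genes, overlapped between the groups, with log2 differences of 0.25 (standard error 0.49) and 0.80 (standard error 0.48). The median was -0.14 without C5aR-/- TAM 1 and 0.69 without C5aR-/- TAM 3.

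HIF targets, among which Adm is counted, were mostly higher in C5aR-/- TAMs. Without Adm, 16 of 18 had a positive difference, against 44.5% of all genes tested, the median was 0.59, and 5 passed the looser cutoff as higher (27.8%, against 2.13% of all genes) and 0 as lower (2.84% of all genes). The 5 were P4ha2, a collagen prolyl hydroxylase (log2 difference 1.71, standard error 0.36), Bnip3, a mitophagy receptor (1.52, standard error 0.31), Vegfa, an angiogenic factor (1.26, standard error 0.40), Slc2a1, the glucose transporter GLUT1 (1.22, standard error 0.21) and Pdk1, a kinase that inhibits pyruvate dehydrogenase (1.17, standard error 0.25). Their adjusted p was from 0.0962 to 0.239 (limma). The genes with a negative difference, named after their values were seen, were Car9 (-0.38, standard error 0.39) and Ddit4 (-0.58, standard error 0.22). Ddit4 was 105 ± 28.0 TPM (SD, n = 3) in WT and 68.8 ± 11.3 TPM (SD, n = 3) in C5aR-/- TAMs. Bnip3 was 11.6, 19.5 and 21.6 TPM in WT and 35.15, 65.5 and 56.3 TPM in C5aR-/- TAMs. Like Adm, it was highest in C5aR-/- TAM 2, whereas Vegfa, P4ha2, Slc2a1 and Pdk1 were highest in C5aR-/- TAM 3. With each library left out in turn the median of the list was from 0.50 to 0.82.

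Calcrl and Ramp2 are best known from endothelial cells, so vessel markers were read beside them. Of 12 endothelial markers, 5 stayed under 1 TPM in all 6 libraries. They include Cdh5, the endothelial cadherin (at most 0.21 TPM), Tie1 (at most 0.08 TPM), Emcn (at most 0.09 TPM), Egfl7 (at most 0.46 TPM) and Cldn5, which was listed at 0 throughout. The list summed to between 123 and 154 TPM in WT and between 82.6 and 134 TPM in C5aR-/- TAMs, most of it Esam (62.8 to 125 TPM). Among the others detected, Pecam1 was 6.84 to 12.5 TPM, Kdr 0.54 to 5.49 TPM and Tek 0.16 to 14.3 TPM over the 6 libraries. Of 7 tested endothelial markers only Robo4 did not overlap, whereas 12.5% of all genes tested were lower without overlap. Robo4 was 11.3 ± 0.452 TPM (SD, n = 3) for WT TAMs against 6.56 ± 1.78 TPM (SD, n = 3) for C5aR-/- TAMs (-0.73 ± 0.22 on the log2 scale, standard error, limma adjusted p = 0.234). Of 5 lymphatic markers, Prox1, the defining factor, reached at most 0.04 TPM, and Flt4 made up nearly all of the sum, with 17.0 to 41.4 TPM in WT and 3.53 to 38.8 TPM in C5aR-/- TAMs.

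Markers of some other cell types also differed between the groups. Of the tested T cell, B cell, dendritic cell, and pericyte or smooth muscle markers, 0 separated the groups, against 21.3% of all genes tested. Of 5 tested fibroblast markers 1 did, Col1a2, which was lower in C5aR-/- TAMs. Of 6 tested epithelial markers 1 did, Krt8, which was higher. The mast cell markers Cpa3, Mcpt4, Cma1, Tpsb2 and Fcer1a were lower in all C5aR-/- libraries, while Kit was higher. Of all genes tested, 12.5% were lower and 8.84% higher without overlap. Mcpt4 and Fcer1a reached 1 TPM in WT libraries alone, so they passed the filter only through the group where they were higher. The 6 mast cell markers summed to 84.5 to 140 TPM in WT and 59.5 to 87.8 TPM in C5aR-/- TAMs. Kit alone was 28.9 to 33.1 TPM in WT and 54.7 to 85.4 TPM in C5aR-/- TAMs, most of the sums there. The other mast cell markers had means of at most 2.99 TPM in C5aR-/- TAMs, for Cma1, against 24.6 TPM in WT TAMs. Neutrophil markers had a negative difference in 5 of 5 tested (55.5% of all genes), of which 4 did not overlap (12.5% of all genes were lower without overlap), with sums from 626 to 2299 TPM in WT and from 30.8 to 388 TPM in C5aR-/- TAMs. Of 6 mesothelial markers, 5 had a negative difference (55.5% of all genes) and Msln a positive one. They summed to 1068 to 1448 TPM in WT and 766 to 1066 TPM in C5aR-/- TAMs. The part of these cells in the Calcrl and Adm values was not tested, and in sorted bulk RNA fewer cells of a type and less RNA per cell cannot be told apart. Of the 8 macrophage markers, 7 overlapped between the groups and Fcgr1 was higher in all C5aR-/- libraries (8.84% of all genes were higher without overlap). With the mean of the macrophage markers as a covariate the log2 difference was 0.92 for Adm and -1.21 for Calcrl. This mean, in log2(TPM + 1), was 6.01 to 7.67 in WT and 6.23 to 7.84 in C5aR-/- libraries. It does not measure the other cell types, so nothing is read from this fit about their part.

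**Figure D4:**
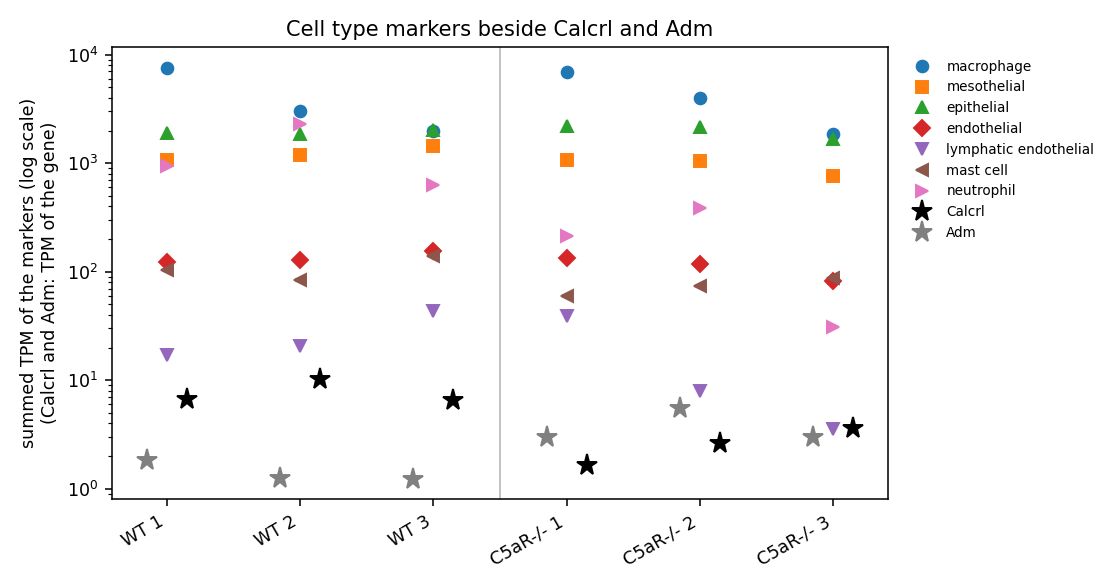
Summed TPM of cell type markers (y axis, log scale) in each of the 6 libraries, with the TPM of Calcrl (black stars) and Adm (gray stars). Neutrophil markers are at most 388 TPM in C5aR-/- and at least 626 TPM in WT libraries, while macrophage markers run from 1974 to 7550 TPM within WT alone.

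For each axis gene, the 3 tested genes with the most similar profile were found as those with the smallest root mean square difference in log2(TPM + 1), after centering each gene on its mean over the 6 libraries. The gene nearest to Adm was Slc16a3, the lactate exporter MCT4, at a difference of 0.10, with 27.2, 19.0 and 17.5 TPM in WT and 33.3, 53.3 and 30.9 TPM in C5aR-/- TAMs. Ksr2, a scaffold of RAF signaling, and Tspan9, a tetraspanin, followed at 0.17 and 0.18. Ksr2 was low, with 0.54, 0.38 and 0.36 TPM in WT and 1.28, 1.79 and 1.05 TPM in C5aR-/- TAMs. It thus passed the filter only through the group where it was higher. The SD of Adm itself over the 6 libraries was 0.59 on this scale.

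Calcrl, with an SD of 0.78, was nearest to Gm28557 and Ctf1, the cytokine cardiotrophin 1, both at 0.14, and to Sohlh1 at 0.18. Ctf1 had 12.8, 19.4 and 15.1 TPM in WT and 4.22, 6.93 and 9.9 TPM in C5aR-/- TAMs, in the order of Calcrl but for WT TAMs 1 and 3. Ramp1 was nearest to Ormdl1 (0.07), Psen2 and Cmtm6 (both 0.08), which were lowest in C5aR-/- TAM 3. Ramp2 was nearest to Gm19569 (0.13), Capn5 (0.14) and Gm19680 (0.15), which were highest in C5aR-/- TAM 2. Ramp3 was nearest to Zfp831 (0.08), Kif21b (0.09) and Etv3 (0.12), which were highest in C5aR-/- TAM 1. The 5 sets of nearest genes shared 0 genes, and nothing is read from this since only 3 genes were kept for each axis gene.

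**Figure D5:**
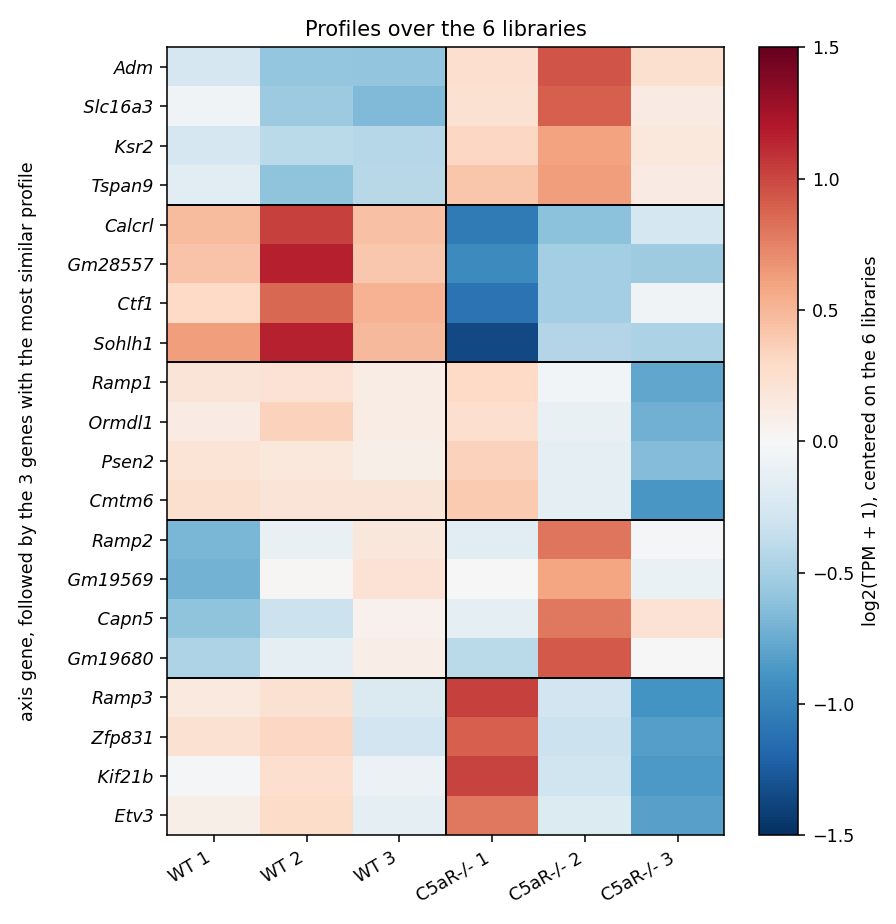
log2(TPM + 1), centered on the mean of the 6 libraries (color), for each axis gene and the 3 genes with the most similar profile (rows) in each library (columns, WT left of the line). Adm and Calcrl separate the groups in opposite directions, while Ramp2 is highest in C5aR-/- TAM 2 and Ramp3 in C5aR-/- TAM 1.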

How the data were processed

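RNA of sorted TAMs was measured in 6 libraries, 3 WT and 3 C5aR-/-, grouped by their labels. Per the labels and the study's methods, the authors used fastp for trimming, HISAT2 for alignment to mm10 and StringTie for assembly, and RSEM is also named. They deposited gene TPM, which sum to 1000000 in each library. Versions and the annotation release are not given in the sources used here. The methods name FPKM, but the deposited values are TPM. Symbols, positions and overlaps came from GENCODE M21 (GRCm38), and 52073 genes had a symbol.

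TPM is no read count, so count models were not run. limma 3.58.1 in R 4.3.3 (lmFit, eBayes with trend, Benjamini-Hochberg) was fitted on log2(TPM + 1) for the 14776 genes that reached 1 TPM in 3 or more libraries, and the fit was tested on simulated data. Other steps used Python 3.11.15, pandas 2.3.3, numpy 2.4.6 and scipy 1.17.1. The axis genes and the gene lists were chosen with earlier results of these data known. Of each pathway list, the genes past the looser cutoff were named, filled up to 4 with the most abundant. Values of 1 gene of the peptide handling list are not reported here. A figure legend of the study gives 4 mice per group for this sequencing, whereas 3 libraries per group were analysed here, and no source says which mouse or mice a library came from, so p-values measure the spread between libraries, which may be technical. The alternatives tried were another pseudocount (0.1), filtering at 5 TPM or not at all, quantile and median-of-ratios scaling, a replicate block, eBayes without trend, leaving out each library, and a macrophage marker covariate chosen after seeing the data.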

Additional observations from a re-analysis of the deposited data

How the results depend on the processing

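Adm stayed higher and Calcrl lower in C5aR-/- TAMs under all alternatives run in which they were tested; filtering at 5 TPM left Adm and Ramp3 untested. The log2 difference of Adm moved most with a pseudocount of 0.1 (1.31). Leaving out single libraries gave 0.72 to 1.07 for Adm, -1.48 to -1.08 for Calcrl, -0.59 to -0.05 for Ramp1, 0.13 to 0.61 for Ramp2 and -0.65 to 0.32 for Ramp3. Genes past the stricter cutoff numbered 2 by eBayes without trend, 33 by the macrophage marker covariate and 0 to 349 when single libraries were left out, the most without C5aR-/- TAM 1. The 733 genes past the looser cutoff (314 higher, 419 lower) became 475 (201 and 274) after filtering at 5 TPM, which tests fewer genes, and 518 to 1220 (240 to 585 higher, 278 to 635 lower) when single libraries were left out. List medians then ran from -0.55 to 0.17 for family ligands and receptors, from -0.62 to -0.23 for peptide handling and from -0.07 to 0.10 for Gs and cyclic AMP transduction. Pathway genes past the looser cutoff as lower were 3, became 5 by the covariate, and ranged from 2 to 5 when single libraries were left out. The cause of these shifts was not tested. A replicate block gave 811 genes past the looser and 0 past the stricter cutoff. The replicate numbers did not pair the libraries: same-numbered libraries correlated at 0.19, -0.01 and 0.27 in their deviations from the group means. Depth is unknown, so its effect on low genes such as Adm and Ramp3 was not tested.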
